A study of Mus musculus with 20 samples.

Results

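The genes Hmgcs1, Idi1, Fdps, Fdft1, Sqle and Lss encode enzymes of cholesterol synthesis, and Srebf2 and Insig1 encode proteins that regulate them. These 8 genes, of 55486 listed, were chosen by symbol, and each was found in the count tables of both tissues. None of the 8 encodes an uptake receptor, so genes of cholesterol uptake were taken from a separate list. The study asked what oxaliplatin, a chemotherapy agent built around platinum, does to bone marrow, and RNA of the kidney was sequenced as well. C57BL/6 mice, 10 weeks old at the start and of both sexes according to the methods, were injected intraperitoneally over 8 weeks with vehicle (5% dextrose) or with 10 mg/kg of oxaliplatin dissolved in it. Each of the 4 groups, vehicle and oxaliplatin in kidney and in bone marrow, held 5 libraries, each from 1 mouse. The dextrose was shared by all groups, no allele was altered, and whether the kidneys and the marrow came from the same mice is not given in the labels.

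Cholesterol is built from acetyl-CoA through mevalonate. Hmgcs1 makes HMG-CoA near the start of the route, and Idi1 and Fdps build the isoprenoid farnesyl diphosphate, which also feeds ubiquinone, dolichol and protein prenylation. Fdft1 commits farnesyl diphosphate to squalene, and Sqle and Lss turn squalene into lanosterol, the first sterol. Srebf2 encodes the transcription factor SREBP-2, which is held in the endoplasmic reticulum by the Insig proteins while sterols are plentiful and which, once released, switches on the enzymes of the route and its own gene. Insig1 is itself a target of this factor.

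In kidney, Hmgcs1 and Idi1 were lower after oxaliplatin, while Lss and Srebf2 were slightly higher. In bone marrow the direction of 3 of these was the opposite: Hmgcs1 was higher, with a wide spread between mice, Srebf2 was lower, and Idi1 was higher by a call that was kept in 3 of 10 fits with 1 mouse left out. The differences in response between the tissues for Hmgcs1, Idi1 and Srebf2 passed the test of the tissue by treatment interaction. Fdps, Fdft1, Sqle and Insig1 did not pass the test in either tissue in the fit with all mice and TMM scaling, although some of these calls depended on the scaling and on single mice.

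Promoter sequence from RefSeq (build GRCm38.p6) was given for 5 of the 8 genes, Hmgcs1, Lss, Idi1, Srebf2 and Insig1, as windows from 250 bases before to 50 bases after the annotated start. Both strands were searched for TCACNCCA, the core of the sterol regulatory element that SREBP-2 binds, for CCAAT, the site of its partner NF-Y, and for CACGTG, an E-box that SREBP proteins can also bind. The letters TCACNCCA stood once each in the windows of Hmgcs1 and Srebf2, against 4.36% of all 32851 windows, and were not in the other 3. The 5 letters CCAAT stood in all 5 windows, against 37.4% of all windows, and 4 times in that of Hmgcs1. The letters CACGTG stood once in the window of Insig1, against 7.15% of all windows. Of 40 genes of the other lists below that had a window, 2 held TCACNCCA, 25 held CCAAT and 8 held CACGTG. No such match is more than a description. The bases before the first annotated transcript base are shown 5′ to 3′ for the 2 genes with the sterol element, which responded in opposite directions within each tissue, and for Insig1, with the matched letters in capitals. They lie on the + strand at chr13:119690101-119690350 (Hmgcs1), chr15:82147019-82147180 (Srebf2) and chr5:28071162-28071362 (Insig1).
Hmgcs1: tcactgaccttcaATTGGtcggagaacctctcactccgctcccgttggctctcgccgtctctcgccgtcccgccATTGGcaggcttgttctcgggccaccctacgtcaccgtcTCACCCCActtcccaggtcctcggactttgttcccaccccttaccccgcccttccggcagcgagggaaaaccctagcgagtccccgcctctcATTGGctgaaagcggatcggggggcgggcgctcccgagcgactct
Srebf2: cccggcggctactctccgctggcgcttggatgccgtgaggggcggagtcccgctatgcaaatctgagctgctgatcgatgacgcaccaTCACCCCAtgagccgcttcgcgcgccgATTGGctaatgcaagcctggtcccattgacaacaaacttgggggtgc
Insig1: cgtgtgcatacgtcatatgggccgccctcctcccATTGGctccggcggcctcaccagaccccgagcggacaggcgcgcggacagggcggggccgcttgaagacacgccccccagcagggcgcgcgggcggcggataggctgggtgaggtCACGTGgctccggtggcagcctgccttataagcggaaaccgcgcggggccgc
The capitals in Hmgcs1 mark 1 sterol element and 3 CCAAT boxes, all 3 written as the reverse complement ATTGG. In Srebf2 they mark 1 sterol element and 1 CCAAT box, and in Insig1 they mark 1 CCAAT box and 1 E-box. The sterol element ended 129 bases before the end of the stretch shown in Hmgcs1 and 66 bases before it in Srebf2.

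The deposited values were raw read counts per gene, and gene positions below are those of GENCODE mouse release 21 (GRCm38). Total counts per library were between 24393007 and 30925430 in kidney and between 30660153 and 41140527 in bone marrow. Levels are given as CPM, counts scaled to library size with factors from the TMM method of edgeR, and 3 counts correspond to between 0.0900 and 0.130 CPM in kidney and between 0.0668 and 0.0975 CPM in bone marrow, for counting error only. Groups were compared by the two-sided quasi-likelihood test of edgeR with Benjamini-Hochberg adjustment over all genes tested, which were 19293 in kidney and 22363 in bone marrow. A gene changed where the adjusted p was under 0.05, and the further limit of a 1.5-fold change used in the study is given beside it. Of all genes tested in kidney, 14.4% were higher and 15.0% lower after oxaliplatin. Of those tested in bone marrow, 16.3% were higher and 16.8% lower. The higher genes made up 49.0% of the changed genes in kidney and 49.2% in bone marrow, which became 74.7% and 66.5% when libraries were scaled by their size alone, with a median log2 fold change over all genes of 0.16 and 0.11. All 20 libraries held RNA of Y-linked genes (summed over 4 genes, 77.5 to 173 CPM) and Xist stayed at or under 2.88 CPM. By these levels no library looked female, although the methods name both sexes, and the labels give no sex.

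Oxaliplatin mice 1 and 5 in kidney and oxaliplatin mice 3 and 4 in bone marrow differed from the rest of their group in marker levels. In kidney, Kap, an androgen-regulated gene of the proximal tubule, was at 831 and 362 CPM in mice 1 and 5, against 2897 to 3509 CPM in the other 3 oxaliplatin mice and 7258 to 8998 CPM in vehicle mice. In bone marrow, the summed level of 8 granulocyte genes was 10206 and 11713 CPM in mice 3 and 4, against 21167 to 26392 CPM in the other 3 oxaliplatin mice and 19064 to 23279 CPM in vehicle mice. On the second principal component of bone marrow, which held 17.7% of the variance, oxaliplatin mouse 3 (-83.8), oxaliplatin mice 5 (57) and 1 (47.6) and vehicle mouse 4 (-48) lay farthest out, and on that of kidney oxaliplatin mice 1 (-34) and 4 (30.5) and vehicle mouse 2 (28.8) did. Oxaliplatin mouse 5 had the lowest Y-linked sum in bone marrow, 99.1 CPM against 133 to 173 CPM. The pairs were picked after their values were seen, so an adjusted p without them describes the other mice and is no test. Values without these pairs are given beside the results that they move.

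**Figure D1:**
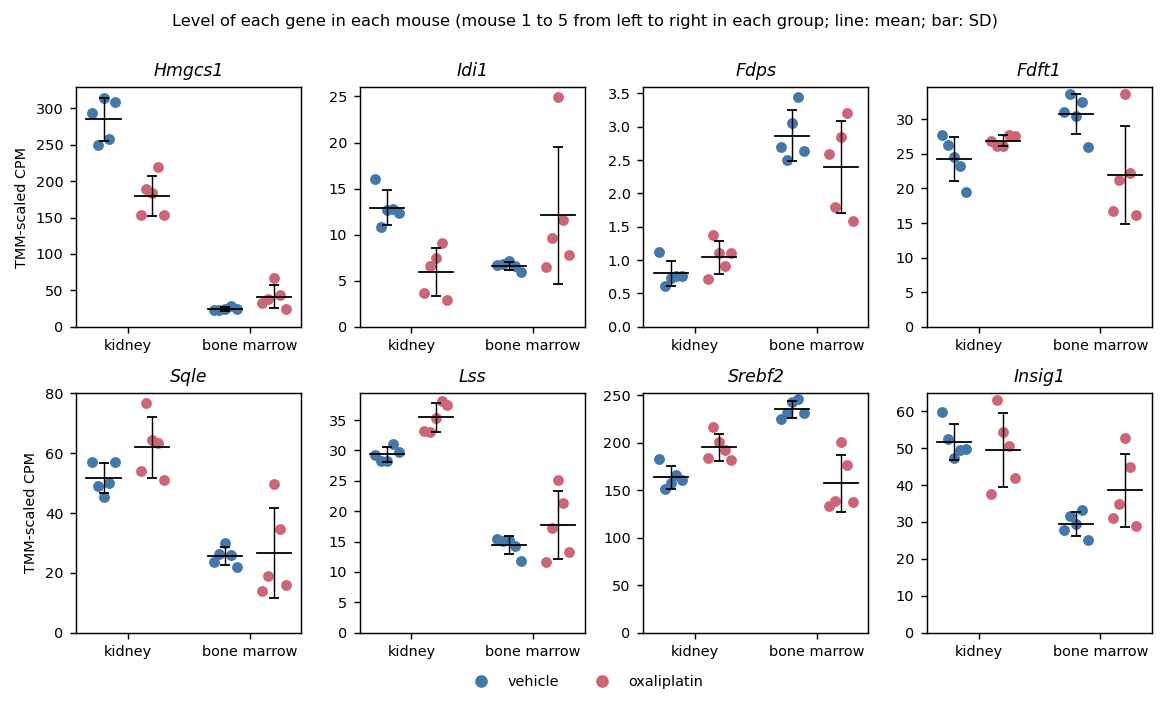
Level of each of the 8 genes (y axis, TMM-scaled CPM) in each of the 5 mice of each group, with the mean as a line and the SD as a bar. In kidney the oxaliplatin mice lie under every vehicle mouse for Hmgcs1 and Idi1, and in bone marrow they spread widely, with Idi1 from 6.48 to 24.9 CPM.

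In kidney, 2 of the 8 genes were higher and 2 were lower after oxaliplatin, against 14.4% higher and 15.0% lower of all genes tested. The 2 lower ones also passed the 1.5-fold limit, against 3.81% of all genes lower and 7.68% higher past that limit. Scaled by library size alone, 6 of the 8 changed in kidney, with Sqle (0.39, edgeR adjusted p = 0.00417) and Fdft1 (0.28, edgeR adjusted p = 0.0332) among them. By that scaling 6215 of all 19293 genes tested changed. The groups did not overlap for 3 of the 8 genes, against 20.7% of all genes tested. The median log2 fold change of the 8 genes was 0.20, and that of all genes tested was 0.02.

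Hmgcs1 (ENSMUSG00000093930, chromosome 13 from 119690379 to 119708260) was measured in kidney at 293, 249, 314, 258 and 309 CPM in vehicle mice 1 to 5. In oxaliplatin mice 1 to 5 it was at 153, 189.7, 183, 219 and 154 CPM. Every oxaliplatin mouse lay under every vehicle mouse, and mice 1 and 5 were the lowest. The means were 285 ± 29.5 and 179.6 ± 27.5 CPM (SD, n = 5 per group), 1.58-fold lower after oxaliplatin, with a log2 fold change of -0.66 (SE 0.10, edgeR adjusted p = 1.4e-04). Without mice 1 and 5 it was -0.52 (edgeR adjusted p = 3.6e-04). Exons of the antisense gene Gm48342 lie over 35.1% of the coding bases of Hmgcs1. The use of strand in counting is not given in the sources used here, so reads from this shared part cannot be assigned with certainty.

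Idi1 (ENSMUSG00000058258, chromosome 13 from 8885501 to 8892451), which interconverts the isoprenoid building units, was at 16.0, 10.8, 12.7, 12.8 and 12.4 CPM in the kidneys of vehicle mice 1 to 5. The oxaliplatin mice had 3.66, 6.63, 7.51, 9.12 and 2.94 CPM. The groups did not overlap, and mice 1 and 5 again were the lowest. From 12.9 ± 1.87 to 5.97 ± 2.61 CPM (SD, n = 5 per group), the level was 2.17-fold lower, with a log2 fold change of -1.12 (SE 0.27, edgeR adjusted p = 0.0108). Without mice 1 and 5 it was -0.73 (edgeR adjusted p = 0.00121). Of the stretches of 50 bases in Idi1 transcripts, 25.3% also occur in transcripts of other genes, mostly of Gm13502, and reads from these could be split or dropped in counting.

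Lss (ENSMUSG00000033105, chromosome 10 from 76531588 to 76557138), which closes the sterol ring system, rose in kidney. Vehicle mice 1 to 5 had 29.2, 28.3, 28.3, 31.1 and 29.8 CPM. Oxaliplatin mice 1 to 5 had 33.2, 33.0, 35.3, 38.1 and 37.5 CPM. All oxaliplatin mice lay over all vehicle mice, but the difference was small, with a log2 fold change of 0.27 (SE 0.069, edgeR adjusted p = 0.00672) and means of 29.4 ± 1.17 and 35.4 ± 2.36 CPM (SD, n = 5 per group).

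Srebf2 (ENSMUSG00000022463, chromosome 15 from 82147181 to 82205379) rose in kidney too. It was at 183, 151, 157, 166 and 161 CPM in vehicle mice 1 to 5 and at 184, 216, 201, 192 and 182 CPM in oxaliplatin mice 1 to 5. Vehicle mouse 1 lay within the range of the oxaliplatin mice, and the other 4 vehicle mice lay under it. The log2 fold change was 0.25 (SE 0.07, edgeR adjusted p = 0.0123), with means of 164 ± 12.1 and 195 ± 14.0 CPM (SD, n = 5 per group). SREBP-2 is activated by cleavage of its protein, which these counts do not measure.

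The other 4 genes did not pass the test in kidney. Sqle (ENSMUSG00000022351, chromosome 15 from 59315077 to 59331192), which adds oxygen to squalene and is a slow step of the route, was between 45.5 and 57.2 CPM in the 5 vehicle mice. Oxaliplatin mice 1 to 5 had 54.0, 76.8, 64.5, 63.5 and 51.0 CPM. Mice 1 and 5 lay within the vehicle range and the other 3 over it, and the log2 fold change was 0.26 (SE 0.10, edgeR adjusted p = 0.064). Without mice 1 and 5, the lowest for this gene and left out after the values were seen, it was 0.41 (edgeR adjusted p = 0.00265). Insig1 (ENSMUSG00000045294, chromosome 5 from 28071363 to 28078662) was also lowest in mice 1 and 5 among the oxaliplatin mice, with 37.6, 63.0, 54.5, 50.7 and 42.0 CPM in mice 1 to 5 against 47.3 to 59.8 CPM with vehicle. Its log2 fold change was -0.06 (SE 0.12, edgeR adjusted p = 0.726) and turned to 0.12 (edgeR adjusted p = 0.354) without mice 1 and 5. Fdft1 (ENSMUSG00000021273, chromosome 14 from 63145150 to 63179578) ranged from 19.5 to 27.7 CPM with vehicle and from 26.1 to 27.8 CPM with oxaliplatin, with a log2 fold change of 0.15 (SE 0.087, edgeR adjusted p = 0.208). Of its stretches of 50 bases, 26.5% also occur in transcripts of other genes, mostly of Ctsb.

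Fdps (ENSMUSG00000059743, chromosome 3 from 89093588 to 89101959) had the lowest counts of the 8 genes. It had between 16 and 41 counts in the kidney libraries and between 57 and 144 in those of bone marrow. Exons of Gm43738 on the same strand lie over 85.9% of its coding bases, and the authors counted only unambiguous reads. Gm43738 itself had 0 counts in each kidney library and at most 4 in bone marrow. The level of Fdps can therefore be too low, and its differences rest on the part of the gene that is not shared. Its log2 fold change was 0.39 (SE 0.28, edgeR adjusted p = 0.309) in kidney and -0.25 (SE 0.23, edgeR adjusted p = 0.443) in bone marrow.

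In bone marrow, 2 of the 8 genes were higher and 1 was lower after oxaliplatin, against 16.3% higher and 16.8% lower of all genes tested. The 2 higher ones passed the 1.5-fold limit, against 11.6% of all genes higher and 11.8% lower past that limit. Scaled by library size alone, 4 of the 8 changed, against 8081 of all 22363 genes tested. The groups did not overlap for 1 of the 8, Srebf2, against 24.9% of all genes tested. The median log2 fold change was 0.18, and that of all genes tested was -0.04. In bulk tissue, fewer cells of a type and less RNA per cell cannot be told apart.

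Hmgcs1 in bone marrow was at 23.7, 22.7, 24.0, 28.4 and 24.0 CPM in vehicle mice 1 to 5. It was at 32.2, 38.2, 67.1, 43.3 and 25.0 CPM in oxaliplatin mice 1 to 5. Mouse 5 lay within the vehicle range, the other 4 over it, and mouse 3 was the highest. The means were 24.6 ± 2.22 and 41.2 ± 16.0 CPM (SD, n = 5 per group), 1.68-fold higher after oxaliplatin, with a log2 fold change of 0.75 (SE 0.21, edgeR adjusted p = 0.0158). Without mice 3 and 4 it was 0.37 (edgeR adjusted p = 0.0347), less than the 1.5-fold limit.

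Idi1 in bone marrow was at 6.68, 6.81, 7.12, 6.58 and 5.91 CPM in vehicle mice and at 6.48, 9.68, 24.9, 11.6 and 7.84 CPM in oxaliplatin mice 1 to 5. Mouse 1 lay within the vehicle range, and mouse 3 was far over the other 4. The log2 fold change was 0.87 (SE 0.31, edgeR adjusted p = 0.0438), with means of 6.62 ± 0.444 and 12.1 ± 7.43 CPM (SD, n = 5 per group). This call depended on single libraries. It was lost without mouse 3, at 0.43 (edgeR adjusted p = 0.064), without mouse 4, at 0.89 (edgeR adjusted p = 0.0657), without any 1 vehicle mouse (edgeR adjusted p from 0.0725 to 0.0929), and without mice 3 and 4 together, at 0.27 (edgeR adjusted p = 0.231).

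Srebf2 in bone marrow was at 225, 231, 243, 246 and 231 CPM in vehicle mice 1 to 5 and at 133, 139, 200.4, 176 and 137 CPM in oxaliplatin mice 1 to 5. All oxaliplatin mice lay under all vehicle mice, mice 3 and 4 the least so. The fall was just short of the 1.5-fold limit, with a log2 fold change of -0.58 (SE 0.12, edgeR adjusted p = 0.00202) and means of 235 ± 8.81 and 157 ± 29.8 CPM (SD, n = 5 per group). Without mice 3 and 4, the highest for this gene and left out after the values were seen, it was -0.79 (edgeR adjusted p = 1.9e-06).

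For the other enzymes, too, the oxaliplatin marrows divided by mouse. Sqle was at 14.1, 19.1, 49.6, 34.5 and 15.8 CPM in oxaliplatin mice 1 to 5, against 22.1 to 29.9 CPM with vehicle. Mice 3 and 4 lay over the vehicle range and the other 3 under it, so that the log2 fold change over all mice was 0.06 (SE 0.31, edgeR adjusted p = 0.906). Without mice 3 and 4, the highest for this gene and left out after the values were seen, it was -0.65 (edgeR adjusted p = 0.00126). Fdft1 was at 16.7, 21.2, 33.7, 22.3 and 16.1 CPM, against 26.0 to 33.6 CPM with vehicle. Only mouse 3 was not under the vehicle range, and the log2 fold change was -0.48 (SE 0.18, edgeR adjusted p = 0.0548), -0.69 (edgeR adjusted p = 4.6e-04) without that mouse and -0.77 (edgeR adjusted p = 1.6e-04) without mice 3 and 4. Lss was at 11.6, 17.3, 25.2, 21.4 and 13.2 CPM, against 11.8 to 15.4 CPM, with a log2 fold change of 0.30 (SE 0.19, edgeR adjusted p = 0.252) that became -0.03 (edgeR adjusted p = 0.895) without mice 3 and 4. Insig1 was between 29.0 and 52.7 CPM, with mouse 3 at 52.7 and mouse 4 at 44.8 CPM, against 25.1 to 33.3 CPM with vehicle. Its log2 fold change was 0.39 (SE 0.16, edgeR adjusted p = 0.0752) and 0.11 (edgeR adjusted p = 0.487) without mice 3 and 4, and it passed by library size alone (0.55, edgeR adjusted p = 0.0173). In each of these genes mouse 3 was the highest oxaliplatin mouse and mouse 4 the next.

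**Figure D2:**
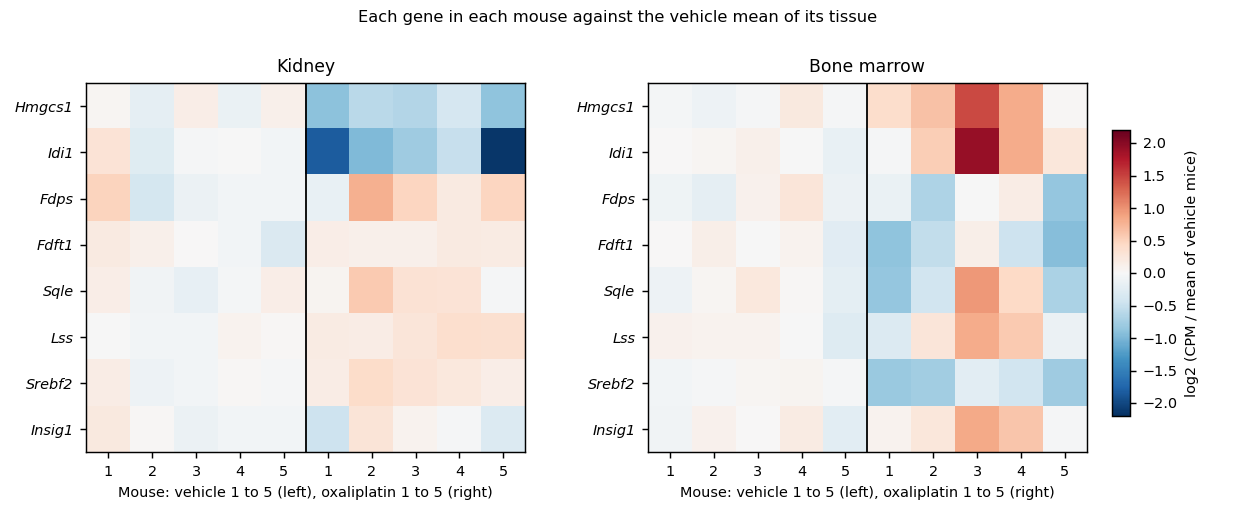
Colour gives the log2 ratio of each gene's CPM to the mean CPM of the vehicle mice of the same tissue, for each mouse (x axis) and gene (y axis). Kidney Idi1 and Hmgcs1 are blue in all 5 oxaliplatin mice, while in bone marrow the columns of oxaliplatin mice 3 and 4 are redder than those of mice 1, 2 and 5.

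Whether the response differed between kidney and bone marrow was tested as an interaction over all 20 libraries and 24321 genes, of which 30.1% differed. Of the 8 genes, 3 differed, 2 with a lower and 1 with a higher log2 fold change in kidney. For Hmgcs1 the kidney value minus the marrow value was -1.48 (SE 0.26, edgeR adjusted p = 1.9e-04). For Idi1 it was -2.07 (SE 0.45, edgeR adjusted p = 0.0013), and for Srebf2 it was 0.77 (SE 0.16, edgeR adjusted p = 7.3e-04). These 3 calls were kept without kidney mice 1 and 5 and without marrow mice 3 and 4. The values for Fdft1 (0.56, SE 0.23, edgeR adjusted p = 0.066), Insig1 (-0.52, SE 0.23, edgeR adjusted p = 0.0855), Fdps (0.57, SE 0.35, edgeR adjusted p = 0.233), Sqle (0.12, SE 0.37, edgeR adjusted p = 0.849) and Lss (-0.11, SE 0.22, edgeR adjusted p = 0.77) missed the threshold. Without marrow mice 3 and 4, left out after the values were seen, Sqle (0.91, edgeR adjusted p = 4.7e-04) and Fdft1 (0.93, edgeR adjusted p = 6.2e-05) were under the threshold as well.

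Levels of different genes were compared per kilobase of exon, with all 20 libraries scaled together. In vehicle kidney, Hmgcs1 was the most abundant of the 8 at 71.2 ± 7.45 CPM per kilobase (SD, n = 5). Srebf2 (26.2 ± 2.09), Insig1 (19.3 ± 1.92), Sqle (10.7 ± 1.09), Fdft1 (6.60 ± 0.888), Idi1 (4.25 ± 0.642), Lss (3.13 ± 0.122) and Fdps (0.219 ± 0.0536) followed, each in CPM per kilobase. Only the ranges of Fdft1 and Idi1 overlapped between neighbours in this order. The level of Fdps, and so its place, can be too low in both tissues, because exons of Gm43738 lie over 85.9% of its coding bases. In vehicle bone marrow Srebf2 led at 27.9 ± 0.750 CPM per kilobase (SD, n = 5), near its kidney level, while Hmgcs1 stood at 4.56 ± 0.356. Insig1 (8.11 ± 0.765) and Fdft1 (6.20 ± 0.527) lay between these, and Sqle (3.93 ± 0.430), Idi1 (1.61 ± 0.0986), Lss (1.14 ± 0.112) and Fdps (0.581 ± 0.0701) lay lower, with overlapping ranges for Hmgcs1 and Sqle alone. After oxaliplatin Hmgcs1 still led in kidney at 44.9 ± 6.91 and Srebf2 still led in bone marrow at 19.5 ± 4.42 CPM per kilobase (SD, n = 5). Idi1 fell behind Lss in kidney, with ranges of 0.951 to 2.96 and 3.53 to 4.02. The mean of Hmgcs1 moved ahead of that of Fdft1 in bone marrow, but their ranges overlapped (4.66 to 13.6 and 3.26 to 7.43).

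The other enzymes of the route came from a list of 15, of which 14 could be tested (Idi2 could not). In kidney 5 were lower and 0 higher, against 15.0% lower and 14.4% higher of all genes tested. The median log2 fold change of the 14 was -0.23. Cyp51, which removes a methyl group from lanosterol, showed the largest change of them at -1.15 (SE 0.14, edgeR adjusted p = 9.8e-05), from 189 ± 16.7 to 85.2 ± 19.5 CPM (SD, n = 5 per group). Ebp (-0.58, edgeR adjusted p = 9.8e-05) and Sc5d (-0.60, edgeR adjusted p = 0.00135), which act on later sterols, and Acat2 (-0.34, edgeR adjusted p = 0.00191), which joins acetyl-CoA units at the start, were lower as well, as was Mvd (-0.65, edgeR adjusted p = 0.012), which makes the substrate of Idi1 and is named here after its values were seen. Without mice 1 and 5 these 5 genes were still lower, with Cyp51 at -0.93 (edgeR adjusted p = 3.8e-07), and 1 gene was higher. In bone marrow 0 of the 14 changed by edgeR, against 16.3% higher and 16.8% lower of all genes tested. The median of the 14 was 0.06, while 3 of them had an unadjusted p under 0.05 and DESeq2 called 2. There the libraries divided for Cyp51 as for Sqle, but not for every enzyme of the list. Cyp51 was at 37.8 and 29.1 CPM in oxaliplatin mice 3 and 4, over the vehicle range of 18.2 to 21.4 CPM, and at 12.5, 13.3 and 14.6 CPM in mice 1, 2 and 5, under it. Without mice 3 and 4, left out after the values were seen, 5 of the 14 were lower and 1, Mvd (0.42), was higher. The median was then -0.23 and Cyp51 was at -0.57 (edgeR adjusted p = 0.00111).

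**Figure D3:**
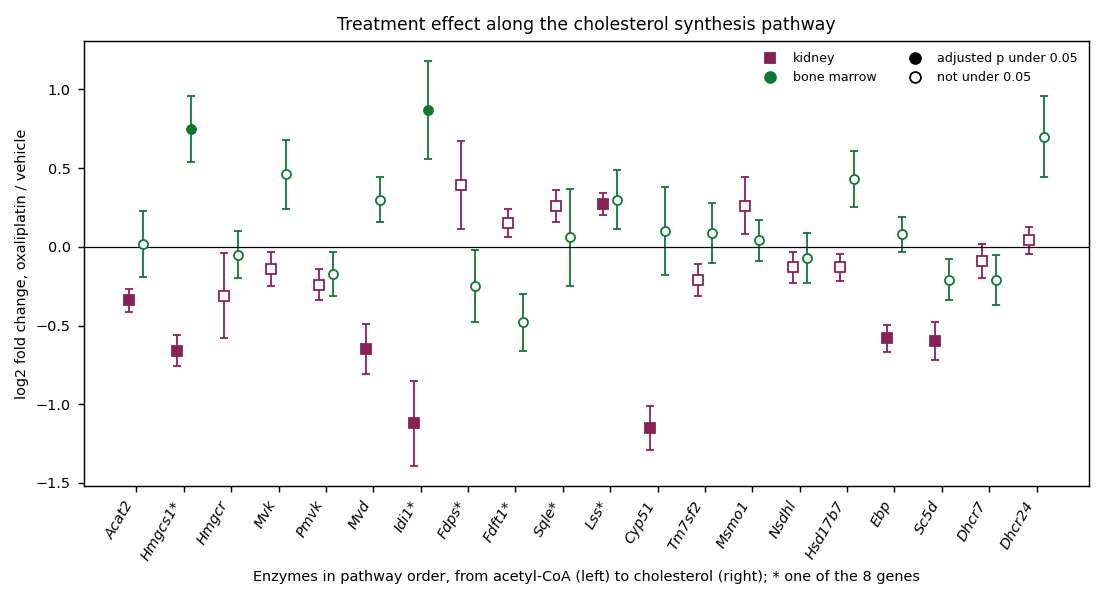
Log2 fold change of oxaliplatin over vehicle (y axis, bars SE) for the enzymes in pathway order (x axis), in kidney (squares) and bone marrow (circles), filled where the adjusted p was under 0.05. The kidney falls are spread along the route, from Acat2 at -0.34 through Idi1 at -1.12 and Cyp51 at -1.15 to Sc5d at -0.60, and Lss at 0.27 is the sole filled square over 0.

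Of 8 genes that process SREBP or sense sterols, 1 was higher and 5 were lower in kidney, with a median of -0.21. Of all genes tested there, 14.4% were higher and 15.0% lower. None of the 8 passed the 1.5-fold limit. By library size alone 1 was higher and 2 were lower, and without mice 1 and 5 the counts were 1 and 3. Srebf1, the sister gene of Srebf2 that favours fatty acid synthesis, rose by 0.40 on the log2 scale (edgeR adjusted p = 0.00141). Mbtps1 (-0.28, edgeR adjusted p = 0.00162), which encodes the first protease that cuts SREBP, and Scap (-0.27, edgeR adjusted p = 0.0126), which escorts SREBP to the Golgi, fell, although Scap missed the threshold without mice 1 and 5 (-0.22, edgeR adjusted p = 0.0689). In bone marrow 2 of 8 were higher and 4 lower, against 16.3% higher and 16.8% lower of all genes tested. The median of the 8 was -0.05. Rnf139 (-1.05, edgeR adjusted p = 1.3e-06) and Rnf145 (-0.89, edgeR adjusted p = 2.3e-06), ubiquitin ligases of the endoplasmic reticulum, and Mbtps1 (-0.44, edgeR adjusted p = 7.1e-04) fell. Insig2, the sister gene of Insig1, rose by 0.72 (edgeR adjusted p = 7.8e-04), all 5 oxaliplatin mice over all vehicle mice.

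Of the 10 genes of uptake and intracellular transport, 9 could be tested (Npc1l1 could not). In kidney 4 were higher and 0 lower, against 14.4% higher and 15.0% lower of all genes tested. The median of the 9 was 0.26. Scarb1, the HDL receptor, rose by 0.30 (edgeR adjusted p = 0.0224) in kidney. Stard4, a sterol carrier, was higher in kidney (0.26, edgeR adjusted p = 0.0205, or 0.22 and 0.0906 without mice 1 and 5) and in bone marrow (0.70, edgeR adjusted p = 0.0159, or 0.37 and 0.0209 without mice 3 and 4). In bone marrow 1 of the 9 was higher and 1 lower, against 16.3% higher and 16.8% lower of all genes tested. The median of the 9 was 0.14.

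The list of efflux, esterification and oxysterol genes held 11, all tested. In bone marrow 5 were higher, all past 1.5-fold, and 1 was lower, with a median of 0.44. Of all genes tested there, 16.3% were higher, or 11.6% past 1.5-fold, and 16.8% were lower. Abca1 (1.16, edgeR adjusted p = 4.6e-04) and Abcg1 (1.08, edgeR adjusted p = 3.2e-04), which export cholesterol, and Apoe (1.58, edgeR adjusted p = 2.1e-05), which carries it, were higher in all 5 oxaliplatin mice than in any vehicle mouse, and among the oxaliplatin mice all 3 were lowest in mouse 3, with Abca1 at 160.4 and Apoe at 1402 CPM there. Of 6 macrophage genes in bone marrow 4 were higher, and their sum went from 648 to 831 CPM to 824 to 1521 CPM, also lowest in mouse 3. The part of these cells in the efflux genes was not tested. Ch25h, which makes 25-hydroxycholesterol, was at 0 CPM in 3 vehicle marrows and at 0.0855 and 0.0650 CPM in the other 2, and at 1.32 to 3.20 CPM in the oxaliplatin mice (edgeR adjusted p = 1.2e-05). In kidney 1 of the 11 was higher and 2 were lower, against 14.4% higher and 15.0% lower of all genes tested. The median of the 11 was 0.24. Soat1, which esterifies cholesterol, rose by 0.24 (edgeR adjusted p = 0.0111, or 0.19 and 0.0813 without mice 1 and 5), and Nr1h3, the oxysterol receptor LXR alpha (-0.48, edgeR adjusted p = 8.6e-04), and Nceh1, which hydrolyses cholesterol esters (-0.36, edgeR adjusted p = 0.00157), fell.

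In the isoprenoid branch, which uses the products of Idi1 and Fdps, 7 of 9 genes were lower in kidney and 0 higher. Their median was -0.23. Of all genes tested in kidney, 15.0% were lower and 14.4% higher. By library size alone 2 of the 9 were lower and 1 higher, and without mice 1 and 5 the counts were 5 and 0. Rabggta, a subunit of the enzyme that prenylates Rab proteins, fell by 0.61 (edgeR adjusted p = 3.1e-05), Pdss1, of ubiquinone synthesis, by 0.73 (edgeR adjusted p = 2.9e-04), Dhdds, of dolichol synthesis, by 0.28 (edgeR adjusted p = 0.00215) and Fnta, the subunit shared by the farnesyl and geranylgeranyl transferases, by 0.23 (edgeR adjusted p = 0.0145). In bone marrow 1 of these 9 was higher and 1 lower, against 16.3% higher and 16.8% lower of all genes tested. The median of the 9 was -0.13. Nus1, the partner of Dhdds, rose by 0.73 (edgeR adjusted p = 3.9e-05), and Fntb, the farnesyl transferase subunit, fell by 0.93 (edgeR adjusted p = 2.3e-04).

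**Figure D4:**
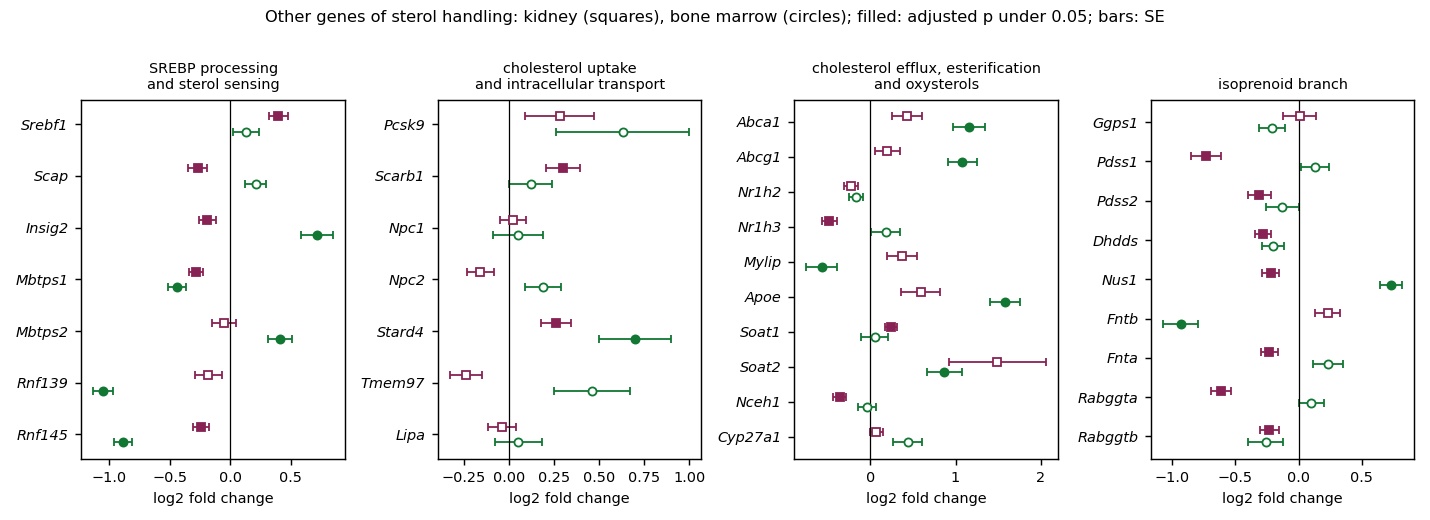
Log2 fold change (x axis, bars SE) of the tested genes of 4 other lists in kidney (squares) and bone marrow (circles), filled where the adjusted p was under 0.05. Ch25h is left out because its vehicle level in bone marrow was near 0, and not every other gene counted in the lists is drawn. Insig2 lies over 0 in bone marrow at 0.72, and Abca1, Abcg1 and Apoe lie at 1.16, 1.08 and 1.58 there.

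Cell type markers moved with treatment in both tissues, and their part in the results above was not tested. Their counts stand beside 14.4% higher and 15.0% lower of all genes tested in kidney, and 16.3% and 16.8% in bone marrow. In kidney, 4 of 8 proximal tubule genes were lower and 1 was higher, and their summed level went from 24238 to 28278 CPM with vehicle to 13408 to 19759 CPM with oxaliplatin, lowest in mice 1 and 5 at 13432 and 13408 CPM. All 5 podocyte genes and 5 of 6 dividing cell genes were higher in kidney, 5 of 6 macrophage genes were lower, and 4 of 5 endothelial genes were higher. Of 6 tested adipocyte genes 5 were higher in kidney, from a sum of 20.3 to 42.2 CPM to one of 61.7 to 178 CPM, highest in mice 1 and 5 at 178 and 163 CPM, which also had the lowest Hmgcs1 and Idi1. Of 5 tested genes of injured tubule 2 were higher, and their sum went from 280.3 to 327 CPM to 509.8 to 647 CPM. Of 7 adrenal cortex markers, which would mark steroid-making tissue beside the kidney, Cyp11a1, Cyp11b1, Cyp11b2 and Cyp21a1 never exceeded 2 counts, while Star had 68 to 222, Mc2r up to 20 and Nr5a1 up to 4. Their sum went from 2.92 to 4.92 CPM to 4.56 to 7.26 CPM, and 0 of them changed, 1 being tested. In bone marrow, 8 of 8 late erythroid genes were lower (24494 to 42231 CPM summed with vehicle, 3121 to 7682 CPM with oxaliplatin), as were 6 of 7 B lineage genes (266 to 483 CPM, then 56.0 to 83.9 CPM) and 5 of 6 dividing cell genes (3900 to 4806 CPM, then 1469 to 2297 CPM). All 7 adipocyte genes were higher (77.1 to 144 CPM, then 497 to 2473 CPM), 4 of 5 endothelial genes were higher, 5 of 6 early erythroid genes were lower, and 0 of 8 granulocyte genes changed. The early erythroid sum was 1257 and 826 CPM in oxaliplatin mice 3 and 4, against 543, 789 and 578 CPM in mice 1, 2 and 5. The late erythroid sum had another order, highest in mouse 2 at 7682 CPM.

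Among mice of the same group the 8 genes varied together in bone marrow and less so in kidney. With group means subtracted, the mean Pearson's r over the 28 pairs of genes was 0.82 in bone marrow and 0.34 in kidney, over 10 libraries each. The mean over all pairs of tested genes was 0.0036 and 0.00038. Positive and negative r cancel in that mean, so it does not show how common a high r was. In bone marrow a high r was common, as Ebp, with r of 0.81 to the mean of the 8, ranked 2075 of 14641 genes. In bone marrow all 28 pairs were positive, from 0.43 to 0.98, the highest between Sqle and Srebf2. In kidney 22 of the 28 were positive, from -0.22 to 0.87, the highest between Sqle and Insig1, and Lss and Fdft1 varied apart from the rest. Without oxaliplatin mice 3 and 4 the mean in bone marrow was 0.45, and without oxaliplatin mice 1 and 5 that in kidney was 0.20. The points share libraries, depth and the cell makeup of each mouse, so the values are descriptions.

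**Figure D5:**
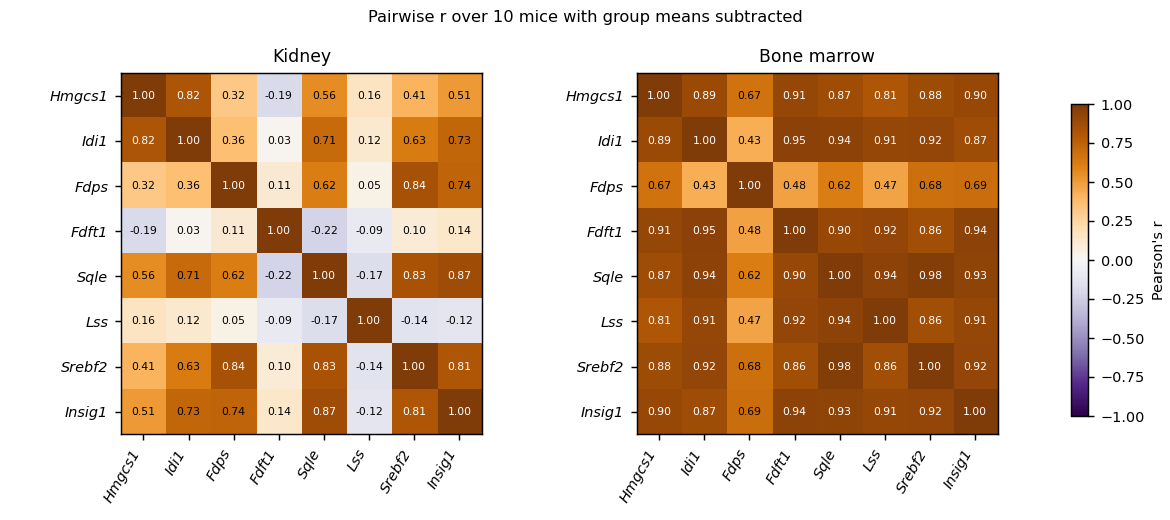
Pearson's r between each pair of the 8 genes over the 10 mice of a tissue, after the mean of each group was subtracted from log2 CPM. Bone marrow values lie between 0.43 and 0.98, and kidney values between -0.22 and 0.87 with Lss and Fdft1 near 0.

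The genes whose pattern was most like the mean of the 8 were named in each tissue by their r over 10 libraries, among genes that averaged 1 or more on the log2 CPM scale. In kidney, of 13628 genes, these were Etv6 (0.936), Cyb5b (0.933), Wdr86 (0.932), Tmlhe (0.923), Chd3 (0.923), Cxcl14 (0.923), Fads1 (0.917), Ggct (0.916), Enpp3 (0.915) and Lbr (0.912). Among enzymes of the route the best placed were Nsdhl at rank 19, Cyp51 at rank 20 and Sc5d at rank 21, while Pmvk (-0.34) varied the other way. In bone marrow, of 14641 genes, they were Kti12 (0.991), Nup37 (0.990), Ubqln4 (0.990), Smim1 (0.990), Ubxn2b (0.989), Ubap2 (0.987), Drosha (0.986), Camsap2 (0.986), Htra2 (0.984) and Slc39a8 (0.982). There Stard4 ranked 102, Tmem97 ranked 121 and Cyp51 ranked 261, with r of 0.96, 0.95 and 0.94, while Mvd (-0.62) and Tm7sf2 (-0.29) varied the other way. Without the pairs of mice the 10 genes had r of 0.63 to 0.92 in kidney and 0.86 to 0.99 in bone marrow over 8 libraries, 0 and 1 of them stayed among the 10 highest, and Cyp51 fell to 0.611 in kidney and 0.243 in bone marrow. Many genes outside the route followed the same order of mice in bone marrow.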

How the data were processed

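RNA of kidney and bone marrow was sequenced from 20 libraries, 5 per tissue and treatment, and the authors deposited raw read counts per gene. The submitters' processing notes name bcl2fastq, STAR, Subread featureCounts and Salmon, and the study's methods name STAR and Partek Flow. Gene models were those of Ensembl release 101. The strand setting is not given in the sources used here. The labels mention ribosomal RNA removal, the methods another kit. Of the listed rows, 55486 genes were kept after repeated identifiers were left out. No 2 libraries were alike within sampling noise. Bone marrow was taken 6 days after the last dose.

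Counts were fitted with edgeR 4.0.16 in R 4.3.3 (glmQLFit with robust estimates, TMM, filterByExpr with a minimum count of 10), within each tissue and over all 20 libraries for the interaction. DESeq2 1.42.0, other scalings and filters, a replicate block, a Y-linked covariate and omitted libraries were alternatives. The scripts were tested on simulated data. P-values test a difference between groups against the spread between these mice, which is estimated in part across genes.

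The 8 genes, the other lists and the tests were chosen with earlier results of these data known. From each other list and tissue the 4 changed genes with the smallest p were named, and the 10 genes with the highest r to the mean of the 8. Some genes of these lists are counted but not reported here by name.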

Additional observations from a re-analysis of the deposited data

Results flagged for a closer look

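Of 32 sets of 5 mice (8 genes, 4 groups), 2 held a mouse far from the other 4 by Dixon's test, which chance gives in about 1 of 20 sets. Hmgcs1 in the bone marrow of vehicle mouse 4 was at 28.4 CPM, against 22.7 to 24.0 CPM in the other vehicle mice. Idi1 in the bone marrow of oxaliplatin mouse 3 was at 24.9 CPM, against 6.48 to 11.6 CPM in the other 4. The response to oxaliplatin differed between the tissues in 3 genes, by the interaction test of edgeR, with kidney minus marrow values on the log2 scale of -1.48 for Hmgcs1, -2.07 for Idi1 and 0.77 for Srebf2.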

How the results depend on the processing

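The calls for Hmgcs1, Idi1, Lss and Srebf2 in kidney, and for Hmgcs1 and Srebf2 in bone marrow, were kept without any 1 mouse, and those of the interaction for Hmgcs1, Idi1 and Srebf2 likewise. With 1 mouse left out, 4 to 5 of the 8 genes changed in kidney, 2 to 4 in bone marrow and 3 to 4 in the interaction. The mean r was then 0.23 to 0.40 in kidney and 0.73 to 0.86 in bone marrow. It was 0.20 in kidney without oxaliplatin mice 1 and 5, and in bone marrow 0.45 without mice 3 and 4 and 0.75 as Spearman's rho. A 1.5-fold limit left 2 of the 8 genes in kidney, and of the other lists 3 sterol enzymes, 0 SREBP, 0 uptake, 0 efflux and 2 isoprenoid genes in kidney, and 3 SREBP and 1 uptake genes in bone marrow. Scaling by library size alone gave 3 SREBP, 5 efflux and 3 isoprenoid genes in kidney, and 4 sterol enzymes and 4 uptake genes in bone marrow. DESeq2 gave 6 efflux genes in kidney and 2 sterol enzymes in bone marrow. Without marrow mice 3 and 4 the interaction called 5 of the 8 genes, and 6 sterol enzymes changed in bone marrow. Library size alone called 6 of the 8 genes in kidney and 4 in bone marrow.

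Same-numbered vehicle and oxaliplatin mice did not vary together (r from -0.15 to 0.08 in kidney, -0.12 to 0.23 in bone marrow), so the numbers were not used as pairs. Between kidney and bone marrow of the same number, r was -0.09 to 0.05 with vehicle and -0.08 to 0.21 with oxaliplatin. It was highest for oxaliplatin mice 3 (0.17) and 5 (0.21), whose best match had the same number. With the replicate number as a block, 4 genes changed in kidney, 4 in bone marrow and 5 in the interaction, where same-numbered kidney and marrow were taken as 1 mouse. Idi1 in bone marrow was then at 0.70 (edgeR adjusted p = 0.0523), Fdft1 at -0.53 (edgeR adjusted p = 0.0205) and Insig1 at 0.36 (edgeR adjusted p = 0.0473).

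Directions turned only for values that had missed the threshold. Insig1 in kidney became 0.07 by library size, 0.03 and 0.00 without oxaliplatin mouse 1 or 5 (lowest -0.17 over single omissions), and 0.12 without both. Sqle in bone marrow became -0.11 with the block, -0.29 and -0.05 without oxaliplatin mouse 3 or 4 (highest 0.25 over single omissions), and -0.65 without both, and Lss -0.03 without both. With a Y-linked covariate Fdps in bone marrow was at 0.03 and the Sqle interaction at -0.04. The latter was -0.09 and -0.06 without marrow oxaliplatin mouse 1 or 5, and at most 0.50 over single omissions. The Lss interaction became 0.01 with at least 10 counts in every library, 0.08 without marrow oxaliplatin mouse 3 (lowest -0.27 over single omissions) and 0.31 without mice 3 and 4. The causes were not tested. The low counts of Fdps limit what its values can show.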
